A study of Mus musculus with 6 samples.

Results

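The NR4A receptors (Nr4a1, Nr4a2 and Nr4a3), the EGR factors (Egr1, Egr2 and Egr3) and the NAB corepressors (Nab1 and Nab2) were examined in LSKs, bone marrow cells sorted as Lin- Sca-1+ c-Kit+ that hold the hematopoietic stem and progenitor cells. The genes were taken by symbol, and all 8 were found among the 55487 genes of the deposited table. RNA sequencing had been performed on LSKs from irradiated mice of 2 genotypes, with 3 libraries from wild-type mice (Tespa1+/+, littermates per the labels) and 3 libraries from mice lacking Tespa1 (Tespa1-/-). Irradiation was thus shared by both groups. Per the methods of the study, irradiation covered the whole body, and RNA was purified from the LSKs days later, not within minutes. The null allele was germline, on a C57BL/6 background. The mice were male and adult per the same methods, and the labels did not say whether a library came from 1 mouse or from a pool, so p-values measure the spread between these libraries, which may be technical.

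NR4A receptors are orphan nuclear receptors whose ligand pocket is closed, so that their activity follows how much of them is made. EGR factors are zinc-finger transcription factors that bind GC-rich DNA, and both families are immediate early genes, transcribed within minutes of a stimulus from factors already in the cell, such as SRF with its ETS partners, CREB and MEF2. NAB proteins bind EGR factors and repress the genes these occupy. NAB2 is itself an EGR target, which closes a negative feedback loop. In blood stem cells, Nr4a1, Nr4a3 and Egr1 have been linked to quiescence and to retention in the marrow.

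In Tespa1-/- LSKs, 6 of the 8 genes were lower than in Tespa1+/+ LSKs and 0 were higher where a call required both a fold above 1.5 and an adjusted p below 0.05. The falls were largest for Egr3, Nr4a3 and Egr1, which were left at 12.6%, 13.2% and 14.5% of the wild-type level. Nr4a1 was left at 28.4%, Nr4a2 at 36.9% and Nab2 at 59.2%. Nab1 stood at 90.1% and was not called, and Egr2 was too low to test. Over all 15332 genes tested, 19.2% were called lower and 14.0% higher by the same rule. Of the calls over all genes, 42.1% were higher, a share that was 29.8% with scaling by total counts alone and 23.9% after correction for gene length. The plot of normalised read counts by library shows the 7 genes tested.

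**Figure D1:**
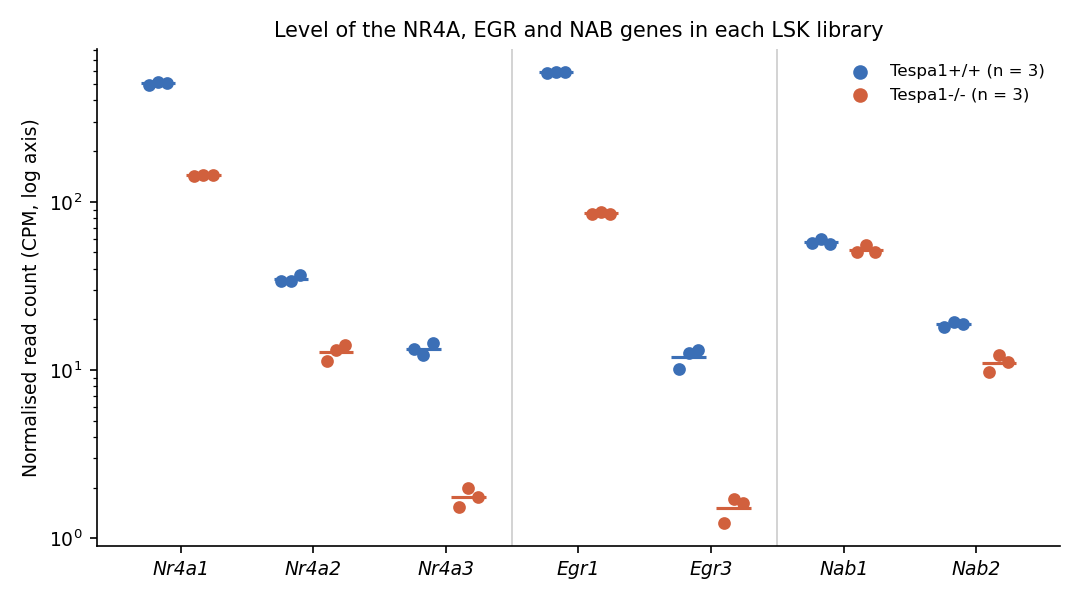
Normalised read count (CPM, log axis) of the 7 tested NR4A, EGR and NAB genes in each library, with blue points for Tespa1+/+ and orange points for Tespa1-/- LSKs and a line at each group mean (n = 3). In each gene the 3 Tespa1-/- libraries lie below the 3 Tespa1+/+ libraries, with the smallest gap in Nab1 (55.1 against 55.9 CPM at the closest libraries).

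The sequences upstream of the transcription start are shown for the NR4A genes, because these 3 genes fell together, and around the matches to the EGR binding site in Nab1. They come from RefSeq windows (build GRCm38.p6), which were found for 6 of the 8 genes, and the 250 bases before the start were searched on both strands. Egr1 and Egr3 had no window, so nothing is said here of their upstream sequences. For the NR4A genes, capitals mark CRE half-sites (TGACG or its complement), the short element read by CREB. For Nab1, capitals mark the EGR site (GCGTGGGCG or GCGGGGGCG, or their complements). Bases that lie in an exon of the same gene in the GENCODE M21 annotation were left out, except within the short Nab1 stretches. The Nr4a1 window is chr15:101266596-101266845 on the plus strand and lies inside the longest annotated extent of the gene, between exons. The Nr4a2 window is chr2:57124004-57124253 on the minus strand, and the Nr4a3 window is chr4:48045055-48045152 on the plus strand.
Nr4a1: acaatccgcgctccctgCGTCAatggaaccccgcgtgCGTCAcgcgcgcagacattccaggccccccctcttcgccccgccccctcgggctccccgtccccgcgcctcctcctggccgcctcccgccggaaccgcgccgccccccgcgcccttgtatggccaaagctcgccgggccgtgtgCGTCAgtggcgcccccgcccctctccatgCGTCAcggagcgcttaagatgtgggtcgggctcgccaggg
Nr4a2: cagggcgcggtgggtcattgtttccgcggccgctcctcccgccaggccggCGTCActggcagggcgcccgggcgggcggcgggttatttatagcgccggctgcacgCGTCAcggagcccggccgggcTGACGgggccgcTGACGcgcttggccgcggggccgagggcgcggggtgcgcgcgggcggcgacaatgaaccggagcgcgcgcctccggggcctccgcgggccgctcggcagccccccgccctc
Nr4a3: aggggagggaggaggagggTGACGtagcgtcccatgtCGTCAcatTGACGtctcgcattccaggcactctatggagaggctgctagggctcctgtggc
The Nab1 stretches, all on the minus strand and in its first exon, are chr1:52500571-52500599, chr1:52500539-52500567 and chr1:52500468-52500496.
Nab1 site 1: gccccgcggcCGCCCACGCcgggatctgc
Nab1 site 2: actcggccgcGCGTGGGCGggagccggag
Nab1 site 3: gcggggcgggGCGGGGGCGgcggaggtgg

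Each of the 3 NR4A windows held 4 CRE half-sites over its 250 bases, 1 of which lies in the part of the Nr4a3 window not printed. Of 32851 windows over 27025 genes, 17.8% held at least 1 half-site and 0.137% held at least 4. The full CRE (TGACGTCA), which would count as 2 half-sites, was in none of the NR4A or NAB windows and in 1.55% of all windows. The Nab1 window held 3 EGR sites and the Nr4a1 window 1, whereas 3.06% of all windows held at least 1 and 0.0335% held at least 3. The Nab2 window (chr10:127666704-127666953, minus strand) held no EGR site, but it lies inside the longest annotated extent of the gene. Bases before the far start of that extent (127668568) were not searched. A MEF2 site was found in the Nr4a2 window, against 2.92% of all windows. The CArG box bound by SRF (1.47% of all windows), the NBRE that NR4A receptors bind as monomers (AAAGGTCA, 1.34%) and CACGTG (6.02%) had no match in the NR4A or NAB windows. Egr2 had 5 windows, in part overlapping, for its alternative starts. Of these, 4 held a CArG box, 3 held 2 CRE half-sites and 1 held CACGTG. The NR4A and NAB windows are rich in G and C, with 80.8% in Nab1, 80.0% in Nr4a2, 74.4% in Nr4a1, 72.8% in Nab2 and 63.6% in Nr4a3 against a median of 52.4% over all windows. The shares over all windows were not matched for G and C content, and the EGR site consists almost only of G and C. These matches describe letters in a window, and binding was not measured.

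The libraries held between 12856630 and 30576981 counts. Tespa1, the targeted gene, was counted 626, 1033 and 533 times in the wild-type and 261, 207 and 176 times in the Tespa1-/- libraries, where it was lower (log2 fold change -1.23, SE 0.07, edgeR adjusted p = 7.0e-06). Of the genes behind the positive sort, Kit was lower in Tespa1-/- LSKs (log2 fold change -0.97), whereas Ly6a, which encodes Sca-1, was not called (-0.32, edgeR adjusted p = 0.109). Cd34, a progenitor marker outside this gate, was lower (-0.77). All 8 late neutrophil markers were higher, and their summed level was 21.1 to 23.8 CPM in Tespa1+/+ against 468 to 495 CPM in Tespa1-/- libraries, and Lcn2 had the highest count of them in both groups. Of the 4 primary granule genes, 3 were higher, and their summed level was 10576 to 11326 CPM against 17100 to 17978 CPM, led by Mpo. Their part in the results below was not tested. In bulk RNA, fewer cells of a type and less RNA per cell cannot be told apart.

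Markers of other lineages were counted as well. Summed B cell markers, of which Cd79b had the highest count in both groups, ranged from 47.7 to 51.2 CPM in Tespa1+/+ and from 34.8 to 38.6 CPM in Tespa1-/- libraries, with 4 of 5 tested markers called lower. Summed T cell markers were at 15.4 to 16.8 CPM against 8.13 to 9.10 CPM, of which Lck had the highest count. Cd3e had 8, 7 and 4 counts in the Tespa1+/+ libraries and 0 in each Tespa1-/- library, too few to test. Megakaryocyte markers, led by Itga2b, were at 106 to 113 CPM against 66.6 to 71.2 CPM, with 2 of 5 called lower. Monocyte and macrophage markers, led by Ly6c2, were at 495 to 535 CPM against 634 to 721 CPM, with 1 of 5 called in each direction. Plasma cell markers were at 406 to 432 CPM against 468 to 492 CPM, led by Ighm in Tespa1+/+ and Igkc in Tespa1-/- libraries, with 2 of 5 called lower (Ighm and Sdc1) and 2 higher (Igkc and Jchain). Erythroid markers were at 18.0 to 18.5 CPM against 30.1 to 33.4 CPM, led by Klf1 and Hba-a1, with 2 of 4 tested called lower (Klf1 and Epor) and 2 higher (Hba-a1 and Hbb-bs). Of the 3 genes of the lineage stain that were examined, Itgam was not called, and the summed level was 29.9 to 31.9 CPM against 10.7 to 27.8 CPM. Ly6g was at 0 in every Tespa1+/+ library and had 7, 8 and 4 counts in the Tespa1-/- libraries, too few to test. Whether any of these cells carried the NR4A or EGR transcripts was not tested.

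Nr4a1 (ENSMUSG00000023034, chromosome 15, 101254269 to 101274795 on GRCm38, plus strand), also called Nur77, is an orphan receptor induced by antigen and stress signals. It was at 497, 514 and 511 CPM in the Tespa1+/+ libraries and at 143, 145 and 145 CPM in the Tespa1-/- libraries. The libraries of a genotype lay close together and the groups were far apart. The level thus fell 3.52-fold (log2 fold change -1.81, SE 0.03, edgeR adjusted p = 9.2e-08), and 2.96% of all genes tested had a larger fall. After correction for gene length the log2 fold change was -1.95 with union exon length and -2.06 with the gene length that underlies the deposited FPKM.

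Nr4a2 (ENSMUSG00000026826, chromosome 2, 57106830 to 57124003, minus strand), or Nurr1, is best known for its need in dopamine neurons and is induced in blood cells with Nr4a1. The Tespa1+/+ libraries had 33.9, 33.9 and 36.7 CPM and the Tespa1-/- libraries 11.3, 13.2 and 14.1 CPM. The highest Tespa1-/- library was still far under the lowest Tespa1+/+ library. At a log2 fold change of -1.44 (edgeR adjusted p = 1.4e-05, SE 0.09), this was the smallest fall of the 3 receptors, and 5.35% of all genes tested fell by more.

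Nr4a3 (ENSMUSG00000028341, chromosome 4, 48045153 to 48086447, plus strand), or Nor1, overlaps in function with Nr4a1 in myeloid cells. It was at 13.4, 12.4 and 14.6 CPM in Tespa1+/+ libraries and at 1.53, 2.0 and 1.77 CPM in Tespa1-/- libraries, which rest on 26, 29 and 22 counts. The groups were separated by more than the spread within either of them. The fall was 7.60-fold (log2 fold change -2.93, SE 0.14, edgeR adjusted p = 3.5e-06), and 0.600% of genes had a larger one. On the log2(FPKM + 1) scale, where a pseudocount as large as the level itself shrinks the change of so low a gene, limma gave -0.97 (adjusted p = 5.8e-05), and with a pseudocount of 0.1 it gave -2.42.

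Egr1 (ENSMUSG00000038418, chromosome 18, 34859823 to 34864984, plus strand) is the founding member of its family. It was at 584, 592 and 587 CPM in Tespa1+/+ LSKs and at 84.7, 87.5 and 84.3 CPM in Tespa1-/- LSKs. The coefficient of variation within a group was 0.719% and 2.09%, among the tightest of the members. The level fell 6.87-fold (log2 fold change -2.78, SE 0.03, edgeR adjusted p = 3.7e-08), and 0.789% of genes fell by more.

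Egr3 (ENSMUSG00000033730, chromosome 14, 70077203 to 70082614, plus strand) acts with Egr2 in lymphocytes, where both restrain activation. The Tespa1+/+ libraries had 10.2, 12.6 and 13.2 CPM and the Tespa1-/- libraries 1.23, 1.72 and 1.61 CPM. Here the Tespa1+/+ libraries varied more than elsewhere (coefficient of variation 13.3%), yet all stood well above the Tespa1-/- ones, which rest on 21, 25 and 20 counts. The fall was 7.92-fold (log2 fold change -2.99, SE 0.17, edgeR adjusted p = 8.3e-06), with 0.528% of genes beyond it. As for Nr4a3, limma gave a smaller change on log2(FPKM + 1), -0.97 (adjusted p = 1.0e-04), and -2.45 with a pseudocount of 0.1.

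Egr2 (ENSMUSG00000037868, chromosome 10, 67535475 to 67542188, plus strand), known from myelination and from macrophages, had 2, 3 and 0 counts in the wild-type libraries and 0 in each Tespa1-/- library. All libraries were at or under 3 counts, the upper limit that a count of 0 allows (0.0981 to 0.233 CPM when scaled by the library total), so a change was not detectable at this depth and no fold is given. Egr4, the remaining family member, which is not one of the 8, was at 1.38, 1.49 and 1.55 CPM against 0.470, 0.276 and 0.484 CPM. It was lower in Tespa1-/- LSKs as well (log2 fold change -1.83, SE 0.26, edgeR adjusted p = 6.2e-04), on 4 to 8 counts per Tespa1-/- library.

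The corepressors changed less than the factors. Nab1 (ENSMUSG00000002881, chromosome 1, 52457294 to 52500679, minus strand) was at 57.2, 59.8 and 55.9 CPM in Tespa1+/+ and at 50.2, 55.1 and 50.6 CPM in Tespa1-/- libraries. The groups did not overlap, but the highest Tespa1-/- library came within the spread of the Tespa1+/+ libraries of the lowest one. The log2 fold change was -0.15 (SE 0.05, edgeR adjusted p = 0.0460), under the fold of 1.5. With DESeq2 the adjusted p was 0.136, and it exceeded 0.05 on leaving out any 1 library other than Tespa1-/- replicate 2 (0.0737 to 0.170).

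Nab2 (ENSMUSG00000025402, chromosome 10, 127660918 to 127668568, minus strand), the member of the pair that EGR factors induce, was at 18.1, 19.2 and 18.8 CPM in Tespa1+/+ and at 9.80, 12.3 and 11.1 CPM in Tespa1-/- libraries. The ranges were well apart. It fell 1.69-fold (log2 fold change -0.76, SE 0.10, edgeR adjusted p = 4.0e-04), and a test against a fold of 1.5 rather than against no change (glmTreat) gave an adjusted p of 0.0854. Exons of Nab2 share bases with 3 genes on the opposite strand. The antisense gene Gm16229 covers 35.7% of its exon bases but had at most 11 counts in any library. Nemp1 covers 5.13% and had 766 to 1632 counts in Tespa1+/+ and 432 to 711 in Tespa1-/- libraries, and Stat6 covers 1.36% and had 1773 to 3921 against 1231 to 1678 counts, in each case more than Nab2. Whether counting used the strand was not stated, so reads of Nab2 and of these genes cannot be told apart with certainty.

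**Figure D2:**
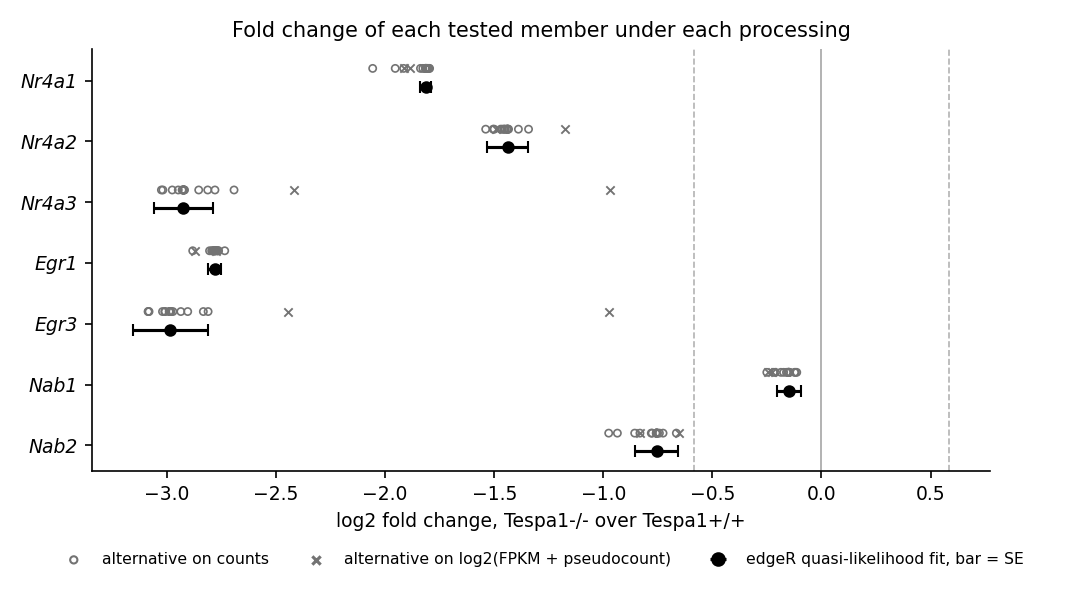
Log2 fold change (Tespa1-/- over Tespa1+/+) of each tested member, with black points and SE bars for the edgeR fit of all 6 libraries, open circles for alternatives on counts, crosses for limma on log2(FPKM + pseudocount) and dashed lines at a fold of 1.5. All estimates are below 0, those of Nab1 lie between -0.25 and -0.11, and the crosses at -0.97 belong to Nr4a3 and Egr3 with a pseudocount of 1.

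All 7 tested genes had an adjusted p under 0.05, a limit that 31.8% of all genes passed downward and 31.5% upward when no fold was required. The groups did not overlap for the 7 genes, with the Tespa1-/- libraries below, which held for 34.6% of all genes tested. The median log2 fold change was -1.81 over the 7 genes and -0.00 over all genes. Within a genotype the libraries differed little in these genes. In 13 of 14 sets of 3 libraries, formed by each of the 7 genes and each genotype, a chi-square test of the counts found no spread beyond counting error at 0.05, the exception being Egr3 in Tespa1+/+ (p = 0.0235). This test covers counting error only, because the libraries carried no molecular identifiers to tell copies of a molecule apart. Over 14398 to 16253 genes, pairs of libraries of a genotype had a chi-square per degree of freedom of 7.29 to 9.46. Over the whole table the libraries thus varied well beyond counting error.

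Fold change followed gene length in these libraries, so the members were set against genes of like length. Among genes with a mean count of at least 100, the shortest decile had a median log2 fold change of 0.63 (up to 1192 exon bases) and the longest (from 9784 bases) one of -0.56. The 7 genes have union exon lengths, that is, of all annotated exons merged, from 2941 bases in Nab2 to 5987 bases in Nr4a3, in the fourth to seventh deciles, whose medians ran from 0.18 to -0.12. In Nab1 the fold change lay inside the middle 50% of its decile (-0.18 to 0.34), and in the other 6 genes it lay below that range. After the length correction the same 6 genes were called lower, with Nab2 at -0.98 and Nr4a3 at -2.78.

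**Figure D3:**
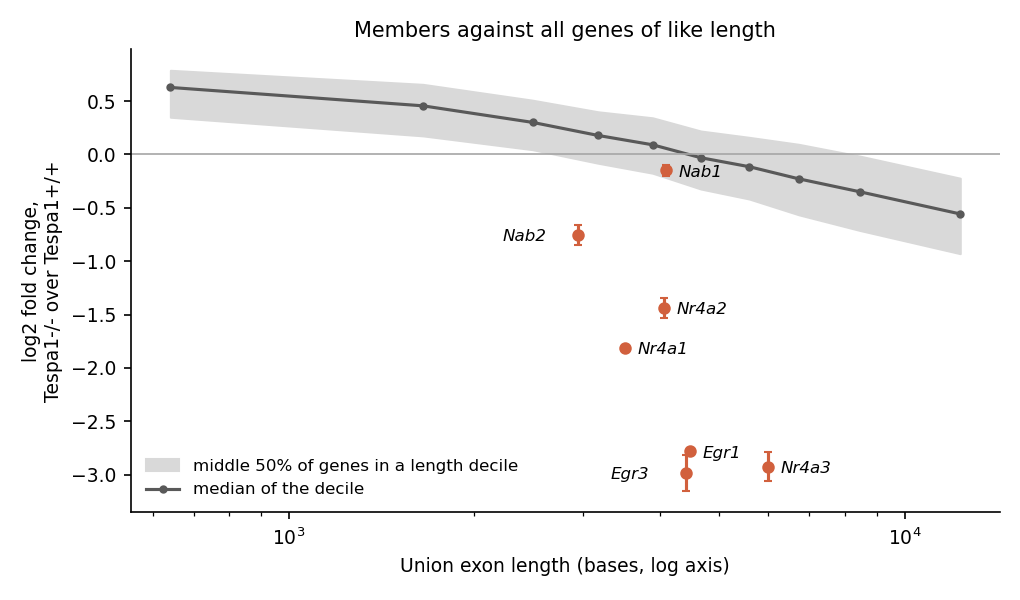
Log2 fold change (Tespa1-/- over Tespa1+/+) against union exon length (bases, log axis) for the 7 tested members (orange points, SE bars), with the median (line) and middle 50% (grey band) of all genes with a mean count of at least 100 in 10 length deciles. Nab1 lies in the grey band, and the other 6 members lie below it, from -0.76 in Nab2 to -2.99 in Egr3.

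Levels were then compared between genes per length, as FPKM. In Tespa1+/+ LSKs the order was Nr4a1 (138 ± 2.23 FPKM, SD, n = 3), Egr1 (80.8 ± 0.482), Nab1 (10.2 ± 0.345), Nr4a2 (5.66 ± 0.263), Nab2 (4.31 ± 0.119), Egr3 (1.26 ± 0.167), Nr4a3 (1.26 ± 0.104) and Egr2 (0.0130 ± 0.0114). Egr3 and Nr4a3 did not differ beyond their spread. In Tespa1-/- LSKs the order was Nr4a1 (36.7 ± 0.252 FPKM, SD, n = 3), Egr1 (11.0 ± 0.242), Nab1 (8.57 ± 0.462), Nab2 (2.38 ± 0.275), Nr4a2 (1.95 ± 0.222), Nr4a3 (0.154 ± 0.0208) and Egr3 (0.150 ± 0.0254), with Egr2 listed at 0. Nab2 and Nr4a2 had thus changed places, although their libraries overlapped (2.11 to 2.65 against 1.71 to 2.14 FPKM), and the last pair again did not differ. The deposited FPKM use a gene length that is longer than the union of exons for all of the 8 genes, by an unequal amount (7520 against 4484 bases in Egr1, 3790 against 3509 in Nr4a1). With union exon length, Nr4a1 was at 149 and Egr1 at 136 FPKM in Tespa1+/+, and at 39.6 and 18.4 FPKM in Tespa1-/- LSKs, and Egr3 had a higher mean than Nr4a3 in both groups, by about the spread between libraries.

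The families were summed on this scale as a description. FPKM are scaled by library totals without TMM, so falls come out larger here than in the edgeR fit. Total-count scaling moved the median log2 fold change of all genes by -0.10. The NR4A sum came to 143, 147 and 147 FPKM in wild-type libraries and to 38.3, 39.1 and 39.1 FPKM in Tespa1-/- libraries, 3.74-fold apart. The EGR sum was 81.5, 82.7 and 82.1 FPKM against 11.0, 11.4 and 11.0 FPKM, 7.39-fold apart, and the NAB sum 14.3, 15.0 and 14.2 FPKM against 10.4, 11.8 and 10.7 FPKM, 1.32-fold apart. The ratio of EGR to NAB sums was thus 5.67 ± 0.134 (SD, n = 3) in Tespa1+/+ LSKs. In Tespa1-/- LSKs it was 1.02 ± 0.0433, so with the deposited gene length the sums did not differ beyond the spread between libraries. The ratio of NR4A to EGR sums was 1.77 ± 0.0178 against 3.49 ± 0.0703. With union exon length the EGR to NAB ratio was 6.56 against 1.18 and the NR4A to EGR ratio 1.16 against 2.30. The EGR sum then exceeded the NAB sum in each Tespa1-/- library (ratios of 1.23, 1.13 and 1.19). The levels thus depend on the length used, while the direction between genotypes did not.

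Nr4a1 made up 95.2% ± 0.231 of the NR4A sum in Tespa1+/+ and 94.6% ± 0.549 in Tespa1-/- libraries (SD, n = 3), and Egr1 made up 98.4% ± 0.185 and 98.7% ± 0.210 of the EGR sum. The share of Nr4a3 in its family was 0.867% ± 0.0726 against 0.398% ± 0.0496, and that of Nr4a2 was 3.89% ± 0.161 against 5.02% ± 0.516. Nab2 held 29.7% ± 0.640 of the NAB sum in Tespa1+/+ and 21.7% ± 1.25 in Tespa1-/- libraries.

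Whether members of a family changed by unequal amounts was examined with the log2 ratio of their FPKM within each library, which needs no scaling between libraries. The ratio does not correct for the trend of fold change with gene length. Of 7 pairs, the 2 with Egr2 could not be computed because of counts of 0. For Nr4a2 over Nr4a3, the Tespa1+/+ libraries gave 2.13, 2.25 and 2.13 and the Tespa1-/- libraries 3.68, 3.52 and 3.79. Nr4a3 therefore fell further than Nr4a2 (difference 1.49, SE 0.09), without overlap of the groups. For Nr4a1 over Nr4a3 the difference was 1.12 (SE 0.13), for Nab1 over Nab2 0.61 (SE 0.07) and for Nr4a1 over Nr4a2 -0.37 (SE 0.10), each without overlap. For Egr1 over Egr3 it was 0.20 (SE 0.18), and the groups overlapped. Without Tespa1-/- replicate 1 this difference was 0.06, and without Tespa1+/+ replicate 1 it was 0.31. With 3 libraries against 3, an exact two-sided permutation test cannot go below p = 0.10. It gave 0.10 for each of the 4 pairs without overlap (0.125 after adjustment over the 5 pairs) and 0.40 for Egr1 over Egr3, so no pair could pass 0.05 in this design.

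**Figure D4:**
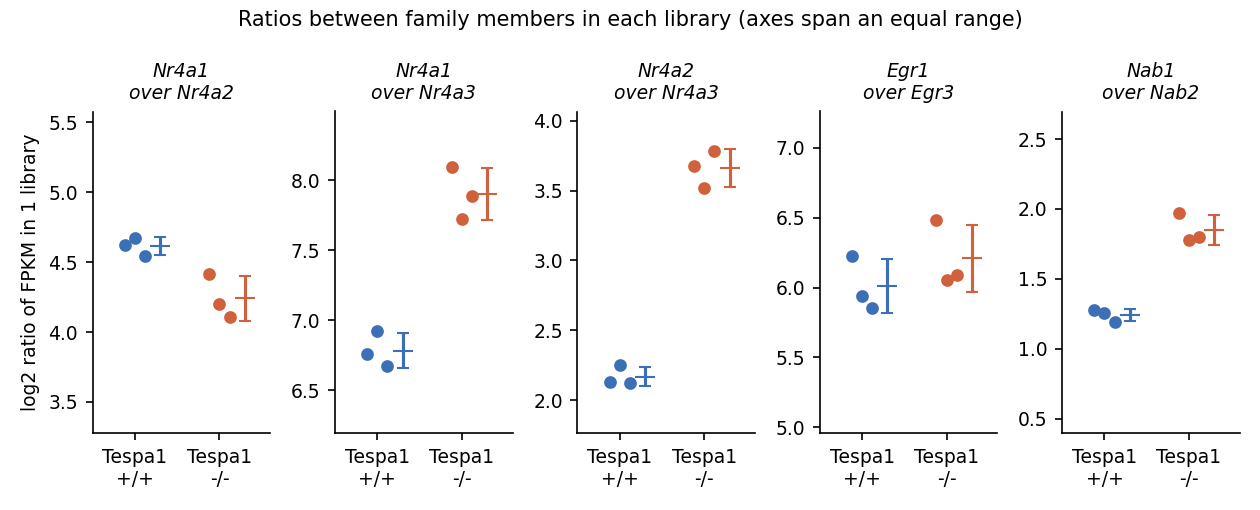
Log2 ratio of the FPKM of 2 family members within each library, with points for single libraries and a bar for the mean ± SD of each genotype (n = 3), in panels whose axes span an equal range. The genotypes are separated for 4 pairs, by the most for Nr4a2 over Nr4a3 (2.17 against 3.66), and overlap for Egr1 over Egr3 (6.01 against 6.21).

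Genes around these factors were followed as lists of regulators, partners and linked genes, 85 genes in all. Of the 80 that were tested, 36 were lower and 0 were higher in Tespa1-/- LSKs, against 19.2% lower and 14.0% higher over all genes tested. The median log2 fold change of the 80 genes was -0.52. After correction by union exon length, 34 were lower and 2, Creb1 and Ppp3ca, were higher, and these 2 are named because of that result.

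Among the upstream regulators, 2 of 6 genes of the SRF group were lower, against 19.2% of all genes. Srf itself stood at 121 ± 5.80 against 107 ± 0.830 CPM (SD, n = 3) and was not called, while Mrtfb, an actin-regulated SRF coactivator, fell from 30.7 ± 1.96 to 8.24 ± 0.919 CPM (log2 fold change -1.90, SE 0.10, edgeR adjusted p = 5.9e-06). In the CREB group 1 of 6 genes was lower, a share under the 19.2% of all genes called lower. That gene was Crtc1, a coactivator that calcium and cAMP send to the nucleus (60.5 ± 3.16 against 30.1 ± 2.98 CPM, log2 fold change -1.01). Creb1 had a log2 fold change of 0.40, under the fold of 1.5. Of 8 tested MEF2 factors and repressors, 5 were lower, against 19.2% of all genes. The largest fall was that of Hdac9, a class IIa deacetylase that represses MEF2 (10.8 ± 0.293 against 1.81 ± 1.13 CPM, log2 fold change -2.52). Of 7 NFAT and calcineurin genes, the 3 NFAT factors were lower, against 19.2% of all genes. Nfatc2 fell the most (16.2 ± 1.10 against 5.98 ± 0.477 CPM, log2 fold change -1.45), whereas the calcineurin subunit Ppp3ca had a log2 fold change of 0.31 and was not called. The counts for these regulator lists carry no length correction. Several of the genes called lower here are in the longest decile (from 9784 exon bases), whose quartiles were -0.93 and -0.22. Of these, Nfatc3 (-0.67) and Cabin1, of the MEF2 list (-0.72), lay between the quartiles, and the others lay below them.

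Among the partners, RXR proteins pair with Nr4a1 and Nr4a2 on DNA. Rxra fell from 11.7 ± 0.600 to 6.93 ± 0.791 CPM (SD, n = 3, log2 fold change -0.76, SE 0.11, edgeR adjusted p = 7.1e-04), and Rxrb was not called (log2 fold change 0.17). Rxrg had 2, 3 and 1 counts in the Tespa1+/+ libraries and 0 in each Tespa1-/- library, too few to test. NAB proteins repress through the NuRD chromatin complex, and 1 of its 11 genes was lower, a share under the 19.2% of all genes. That gene was Chd3, a NuRD helicase (260 ± 5.58 against 128 ± 1.32 CPM, log2 fold change -1.02), and the list had a median of -0.01, close to that of all genes.

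Of 11 tested genes linked to EGR factors, 5 were lower, against 19.2% of all genes, with a median log2 fold change of -0.56. By the rule for abundant genes, Cd44, an adhesion receptor for hyaluronan, is the one to name (231 ± 7.39 against 142 ± 2.87 CPM, SD, n = 3, log2 fold change -0.71, SE 0.04, edgeR adjusted p = 5.2e-06). Of 4 tested genes linked to NR4A receptors, 3 were lower, among them Ikzf2, the zinc-finger factor Helios (38.1 ± 4.66 against 15.8 ± 1.01 CPM, log2 fold change -1.28). Cebpa, the myeloid factor that has been described as induced by NR4A receptors in stem cells, had 199 ± 10.0 against 251 ± 7.13 CPM (log2 fold change 0.33) and was not called. The counts for these linked genes carry no length correction either.

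Of 24 other immediate early genes tested, 14 were lower, against 19.2% of all genes, 0 were higher and 10 were not called. The median log2 fold change was -0.67, and 22 of the 24 values were below 0. The values above 0 were those of Nfkbia (0.36, edgeR adjusted p = 3.7e-05), the inhibitor of NF-kB, and Gadd45b (0.31, adjusted p = 0.0074), both under the fold of 1.5. Both genes are short, with 1610 and 1589 exon bases. In the length decile from 1193 to 2089 bases, the median log2 fold change was 0.46 and the quartiles were 0.17 and 0.66. Both values thus lay below the median for their length and between these quartiles. The largest fall was that of Fosb, an AP-1 subunit, from 2157 ± 58.1 to 637 ± 54.8 CPM (SD, n = 3, log2 fold change -1.76, SE 0.06, edgeR adjusted p = 1.5e-06). Nr4a3, Egr1 and Egr3 all had a larger fall than any of these 24 genes. The estimate for Nr4a1 (-1.81, SE 0.03) was within 1 SE of that for Fosb, so these falls were alike. Nr4a2 (-1.44) and Nab2 (-0.76) fell by less than Fosb. These values carry no length correction. The difference between the members and this list was not tested.

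**Figure D5:**
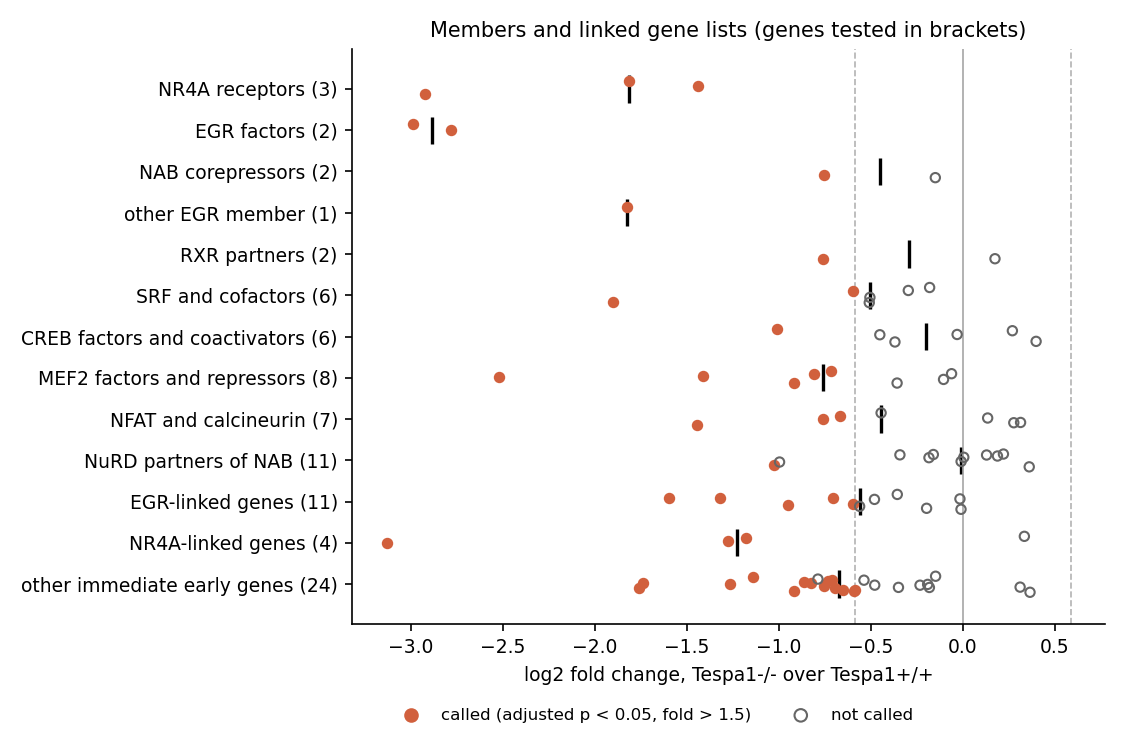
Log2 fold change (Tespa1-/- over Tespa1+/+) of the members and of the linked gene lists, 1 point per tested gene, filled where called (adjusted p under 0.05 and fold over 1.5), with a black line at each list's median and dashed lines at a fold of 1.5. No point lies beyond 1.5-fold on the higher side, and the NuRD list is centred near 0 while the other immediate early genes have a median of -0.67.

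Finally, the genes with the pattern most like each member over the 6 libraries were found, by the root mean square difference of mean-centred log2(CPM + 0.1) among 10821 genes with a mean count of at least 100. The 6 libraries form 2 groups, so likeness mostly reflects an equal fold change. Nr4a3 and Egr3 had Kcng1, a potassium channel subunit, as the closest gene (difference 0.0857 and 0.114), and Plk2, a polo-like kinase, was the closest to Egr1 (0.0762). Members were among each other's closest genes in 2 cases, Egr1 for Nr4a3 (0.125) and Nr4a3 for Egr3 (0.131). Plk2 was also close to Nr4a3 (0.117) and Egr3 (0.157), and Egr1 had Dst (0.105) and Kcng1 (0.107) next. For Nr4a1 the closest genes were H2-Q7 (0.0352), whose reads may be shared with near-identical class I genes, A930004J17Rik (0.0449) and Notch1 (0.0453).

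Nr4a2 was closest to Eml5 (0.0589), Slc8a1 (0.0614) and Mex3b (0.0662). Nab2 was close to Rxra (0.0266) and Pcbp3 (0.0403), and Nab1 was closest to Tbc1d22b (0.0192), Map2k3 (0.0264) and Wdr48 (0.0273). Of the 21 places, 12 were held by the same gene among the closest 3 with a pseudocount of 1 CPM.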

How the data were processed

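RNA from LSKs of 3 irradiated Tespa1+/+ and 3 irradiated Tespa1-/- mice or pools was sequenced as stranded, paired-end, poly-A libraries. The authors deposited raw counts per gene and FPKM values, that is, counts scaled to the library total and to a fixed gene length. The submitters' processing notes name CASAVA 1.8, HISAT2, StringTie, edgeR and the build GRCm38. Their roles and use of strand in counting are not given in the sources used here. The sample titles gave the groups and replicate numbers. The 8 members and all gene lists were chosen with earlier results of these data known.

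After filterByExpr and TMM scaling, 15332 genes were tested on counts with edgeR 4.0.16 (R 4.3.3, quasi-likelihood F-test, Benjamini-Hochberg adjustment). Fold changes are Tespa1-/- over Tespa1+/+, and the SE is the absolute log2 fold change over the root of F. CPM uses TMM-scaled library sizes. A call required a fold above 1.5 and an adjusted p below 0.05. Genes named beside the members are Tespa1, Egr4, the called gene with the largest rise and fall in each list (mean count of at least 100), the most abundant marker per group and the 3 genes most similar to each member, of which 1 gene is not reported here. Srf, Creb1, Ppp3ca, Nfatc3, Cabin1, Rxrb, Rxrg, Cebpa, Kit, Cd34, Ly6a, Cd3e, Itgam, Ly6g, Nfkbia, Gadd45b, Sdc1, Jchain, Epor, Hbb-bs and the genes overlapping Nab2 were named in addition, with their values seen. Limma 3.58.1, DESeq2 1.42.0, RLE, total-count and length-corrected fits, other filters, a replicate block and leaving out each library served as alternatives. The scripts were tested on simulated data. The pseudocount for similarity and the union exon length for FPKM were chosen after the data were seen.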

Additional observations from a re-analysis of the deposited data

How the results depend on the processing

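Under 18 alternatives, 5 to 6 members were called lower and 0 higher, and all log2 fold changes of the 7 tested members stayed below 0. Nr4a1, Nr4a2, Nr4a3, Egr1 and Egr3 stayed past an adjusted p of 0.05 in each. On leaving out 1 library the values ranged from -1.83 to -1.80 for Nr4a1, -1.50 to -1.34 for Nr4a2, -3.02 to -2.81 for Nr4a3, -2.79 to -2.76 for Egr1, -3.09 to -2.83 for Egr3 and -0.83 to -0.67 for Nab2. Nab2 was lost with glmTreat (-0.76, adjusted p = 0.0854, range over its alternatives 3.3e-06 to 0.0854). Nab1 was lost with glmTreat (-0.15, adjusted p = 1.0), without the filter (-0.15, 0.137) and with DESeq2 (-0.15, 0.136), and on leaving out 1 library it ranged from -0.19 to -0.11 (0.0249 to 0.170). Its adjusted p ranged from 0.00575 to 1.0 over all alternatives. The cause was not tested. Over all genes, 1807 were lower and 1020 higher with glmTreat, 1626 and 1070 with limma on log2(FPKM + 1), and the higher genes numbered 1365 with log2(FPKM + 0.1), 880 with union exon length correction and 934 with the implied length. Total-count scaling moved the median of all genes by -0.10, relative to which Nab1 was at -0.15. Of the 80 tested pathway genes, 25 to 40 were lower, and 2 were higher with union exon length correction and 1 with the implied length.

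With union exon length in place of the deposited length, the NR4A sum was 160.6 FPKM in Tespa1+/+ and 43.0 FPKM in Tespa1-/- LSKs, the EGR sum 138 and 18.7 FPKM, and the NAB sum 21.1 and 15.9 FPKM. The EGR to NAB ratio was then 6.56 and 1.18, and the NR4A to EGR ratio 1.16 and 2.30. The log2 ratios within families moved by less than the spread between libraries with raw counts and on leaving out 1 library. That of Egr1 over Egr3, which overlapped between groups, ranged from 0.06 to 0.31 on leaving out 1 library. No length correction was applied to these ratios. With union exon length correction, the log2 fold changes were -1.95 for Nr4a1, -1.50 for Nr4a2 and -2.78 for Nr4a3. Without it they were -1.81, -1.44 and -2.93, so Nr4a3 stood closer to Nr4a1 and Nr4a2 after the correction. Same-numbered libraries of the 2 genotypes did not deviate together (correlation 0.02, -0.03 and 0.05 over 10283 genes), so the numbers were not taken as pairs. With the replicate number as a block, 6 members were called lower, and the log2 fold changes were -1.81 for Nr4a1, -1.44 for Nr4a2, -2.92 for Nr4a3, -2.78 for Egr1, -2.97 for Egr3, -0.15 for Nab1 and -0.76 for Nab2. The block called 2871 genes lower and 2101 higher. Depth limits Egr2, which could not be tested, and the Tespa1-/- values of Nr4a3 and Egr3, which rest on 20 to 29 counts per library.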
